A study of Mus musculus with 31 samples.

Results

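The transition described here is that of control induced pluripotent stem cells (iPSCs) to embryoid bodies, followed on 19 of the 31 arrays of the series, namely all 10 arrays of control iPSCs at day 0 and all 9 arrays of control embryoid bodies at day 11. The control cells were wild type and came from CD1 mice. In every group the iPSCs had been reprogrammed from the tail-tip fibroblasts of male adults with Sendai virus, a vector that carries the reprogramming factors without entering the genome. The day 0 cells were held in the pluripotent state on a layer of inactivated mouse embryonic fibroblasts (feeder cells), and the day 11 cells had been aggregated in microwells and left to differentiate spontaneously, with no lineage factor named in the labels. The 12 Nos3-/- arrays of the series were not compared with anything here. Among the tests they entered only an alternative fit over all 31 arrays, through its estimate of the spread. They may also have shaped the deposited control values, which were scaled before the 19 arrays were picked out. The labels do not say how many iPSC lines or clones lie behind the 19 arrays, nor whether the arrays of a day came from separate cultures, so the p-values describe array-to-array spread that may be technical.

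Pluripotent cells held by the factors Oct4 (gene Pou5f1), Nanog and Sox2 can form all tissues of the embryo. When they are lifted off their supporting layer and aggregated, they pass through a state like the epiblast, form a primitive streak-like population under Nodal, Wnt and BMP signals, and give rise to mesoderm, from which heart muscle, vessels and the first red blood cells arise. The outer layer of such aggregates commonly becomes visceral endoderm, the yolk-sac tissue that secretes alpha-fetoprotein and lipoproteins. Beating areas and haemoglobin-containing islands are the classical signs of an embryoid body in its second week.

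Levels are log2 intensities after RMA, which scales the arrays to each other and fits the probes of each probe set over all arrays together. Where a gene had several probe sets, the one of greatest mean level on these 19 arrays stands for it, and a gene is said to have risen or fallen where the limma test of day 11 minus day 0 gave an adjusted p under 0.05 over all probe sets. Other probe sets of a gene did not always share its call, and 242 genes that passed had another probe set called the opposite way. The values carry no detection call, so a low level is not read as absence, and levels of different genes are not compared. Whole-culture RNA was measured, so fewer cells of a type and less RNA per cell cannot be told apart. The arrays correlated with each other at 0.944 to 0.997, and the first principal component, with 50.8% of the variance, separated all day 0 from all day 11 arrays. The number of arrays limits the precision.

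Some arrays stood apart from their group. The array of day 11 replicate 3 had Eif2s3y, a Y-linked gene, at 3.21, where the other day 11 arrays had 10.46 to 11.27, and its Xist, the RNA of the inactive X chromosome, was 9.62, so its values go against the label of male donors. Uty and Kdm5d, also Y-linked, were 2.95 and 2.79 on that array. The array of day 0 replicate 4 had Eif2s3y at 7.75, against 10.19 to 10.85 on the other day 0 arrays. Xist was between 7.99 and 10.10 on all day 0 arrays, and between 6.65 and 7.09 on the day 11 arrays other than replicates 1 (8.37) and 3. The sex of the feeder cells is not given, and what RNA of feeder cells adds to the day 0 levels was not tested. Arrays of day 0 replicates 1 and 9 and day 11 replicates 1 and 3 had the highest positions on the second component (10.1% of the variance). Some counts moved when these arrays were left out, and many of these moves, though not all, are given beside the lists described.

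Of 18194 genes tested, 6723 (37%) passed, 1035 (5.69%) of them by at least 2-fold, as did 12591 (36%) of the 34958 probe sets at adjusted p under 0.05. Of the genes, 3141 (17.3%) rose and 3582 (19.7%) fell, and 397 (2.18%) rose and 638 (3.51%) fell at least 2-fold. The count of every list below is to be read beside these shares. Lists and their members were chosen with earlier results of these data known, so a ranking among lists describes the lists as drawn up. In 531 genes (2.92%) every day 11 array was above every day 0 array with the change passing, and in 660 (3.63%) every day 11 array was below. The median change of all genes was -0.031. Falls outnumbered rises as deposited, with 46.7% of the passing genes higher at day 11, but this share was 51.7% after quantile normalization and 54.5% with array medians set equal, so the balance between rises and falls has no settled direction. Among genes changed at least 2-fold, 38.4% were higher at day 11, and 39.3% and 40.1% under those scalings.

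The 12 highest and the 12 lowest changes without overlap between the days are named first. Tdo2, the tryptophan-degrading enzyme of liver and yolk sac, ranged from 3.40 to 3.99 (median 3.69) at day 0 and from 7.15 to 10.20 (median 8.76) at day 11. Hand2, a transcription factor of the right ventricle and limb, ranged from 5.10 to 6.18 (median 5.60) and then from 8.44 to 10.82 (median 9.72). Hapln1, which links hyaluronan to proteoglycan in the heart's jelly and in cartilage, ranged from 3.27 to 3.59 (median 3.47) and then from 5.08 to 9.33 (median 7.49). By the rule that chose these genes, no array of day 11 reached down to day 0. The changes were 5.05 (SE 0.31, limma adjusted p = 3.46e-10), 4.27 (SE 0.26, adjusted p = 2.82e-10) and 4.08 (SE 0.36, adjusted p = 5.47e-08). Other probe sets of the same genes changed less. Those of Tdo2 rose by 0.53 and 0.46, and those of Hapln1 by 2.12, 2.58 and 2.70. Of those of Hand2, 1 rose by 0.27 and 1 did not pass (0.21, adjusted p = 0.0881). Among the 12 highest changes without overlap were also Afp (5.09), Hbb-bh1 (4.99), Tnnt2 (4.73), Ttr (4.11), Dlk1 (4.04), Ttn (4.00), Tbx20 (3.99), Myh7 (3.91) and Tnni1 (3.90), which are described with their groups.

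On the other side, Lyz1 and Lyz2, the lysozymes of Paneth cells and macrophages, fell by 6.43 and 6.12 on the log2 scale. The genes are near-identical copies whose signals may not be separate. Mmp13, a collagenase, ranged from 9.35 to 10.76 (median 9.88) at day 0 and from 3.45 to 4.67 (median 3.84) at day 11, and Mmp3, stromelysin, from 10.13 to 12.75 (median 11.13) and then from 4.46 to 6.91 (median 5.65). Il6, the cytokine interleukin 6, ranged from 7.80 to 10.13 (median 9.17) and then from 2.78 to 3.83 (median 3.20). Each of these separated the days completely, as the rule of choice required. The changes were -6.10 (SE 0.20), -5.82 (SE 0.38) and -5.81 (SE 0.27), with limma adjusted p from 5.26e-14 to 6.2e-10. The other genes of the 12 lowest were Mgp, an inhibitor of matrix calcification (-6.09), Tm4sf1 (-5.91), Tslp, a cytokine (-5.68), Mcpt8, a mast cell and basophil protease (-5.68), S100a4 of fibroblasts (-5.43), Ereg, an EGF-family ligand (-5.35), and Lox, which cross-links collagen (-5.13).

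**Figure D1:**
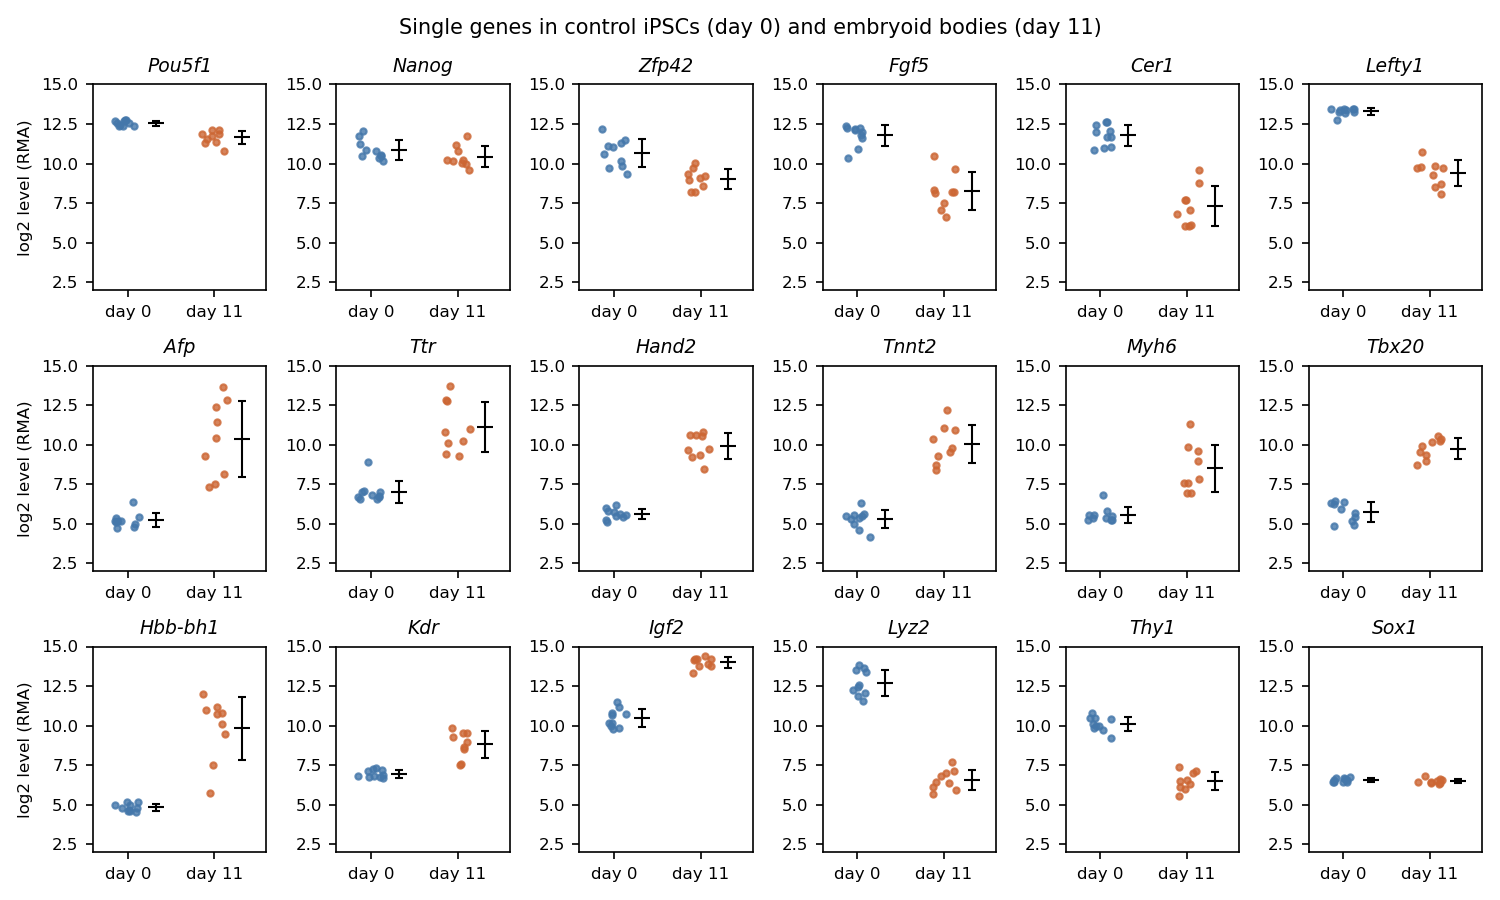
Log2 RMA levels of 18 genes (vertical axis) on the 10 day 0 and 9 day 11 control arrays (horizontal axis). Points are arrays, and the bar and whiskers beside them are mean and SD. Pou5f1 moves from a median of 12.54 to 11.78 while Tnnt2 moves from 5.44 to 9.82, and Sox1 has medians of 6.57 and 6.47.

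Of 22 core and naive pluripotency genes, 14 fell (6 at least 2-fold), 3 rose (1 at least 2-fold; 1 rose without the 4 arrays highest on the second component) and 5 did not pass, with a list median of -0.76. Pou5f1 ranged from 12.35 to 12.79 (median 12.54) at day 0 and from 10.83 to 12.15 (median 11.78) at day 11. Every day 11 array was lower than every day 0 array, yet the change was -0.90 (SE 0.14, limma adjusted p = 3.84e-05), a fold of 1.87. Nanog ranged from 10.17 to 12.04 (median 10.70) and then from 9.62 to 11.76 (median 10.21), and Sox2 from 9.96 to 12.23 (median 10.83) and then from 9.92 to 11.14 (median 10.38). Their groups overlapped, and neither change passed (-0.43, limma adjusted p = 0.227, and -0.38, 0.251), although Nanog passed without the 4 arrays highest on the second component (-0.47, 0.0353). Esrrb (-0.58, adjusted p = 0.183), Fbxo15 (-0.49, 0.291) and Tfcp2l1 (-0.03, 0.949), which with Zfp42 and Klf4 belong to the naive network, did not pass either, and of these Esrrb passed without the same 4 arrays (-0.66, 0.0188).

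The larger falls in this list were in Nr0b1, an Oct4 partner (-2.04, SE 0.39, limma adjusted p = 0.000347), in Fgf4, the growth factor that primes the cells for differentiation (-1.90, SE 0.25, adjusted p = 6.8e-06), and in Zfp42, also named Rex1. Zfp42 ranged from 9.32 to 12.16 (median 10.82) and then from 8.20 to 10.03 (median 9.09), a change of -1.63 (SE 0.33, adjusted p = 0.000654). Tdgf1, the Nodal coreceptor Cripto, named after its values were seen, fell without overlap from a median of 12.82 to 11.02 (-1.73, SE 0.18, adjusted p = 4.11e-07). Klf4, one of the reprogramming factors, changed by -1.01 (adjusted p = 0.038). The call did not survive the omission of any 1 of 13 arrays (day 0 replicates 1, 2, 3, 5, 6, 7 or 9, or day 11 replicates 1, 2, 3, 5, 6 or 9), with adjusted p from 0.0528 to 0.0742. Tbx3 was the gene of the list that rose at least 2-fold, from a median of 7.78 to 9.83 without overlap (1.74, SE 0.19, adjusted p = 1e-06), and this T-box factor also belongs to heart and limb mesoderm. With the spread estimated over all 31 arrays, 8 of the 22 genes fell and 1 rose. The 8 iPSC markers had array means of 9.87 to 11.68 at day 0 and 9.28 to 10.60 at day 11, and 3 of the 8 fell.

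Day 0 replicates 1 and 9 had the highest naive list means of their group, 10.57 and 10.39, against 9.28 to 9.85 on the other 8 arrays, and their formative list means, 9.84 and 10.16, were the lowest, against 10.25 to 10.48. Esrrb was 9.46 and 9.51 on them and 7.63 to 8.49 on the rest. Fgf5, the marker of formative epiblast, was 10.35 and 10.90 there and 11.63 to 12.41 on the rest. These 2 arrays were thus the highest in the naive list and the lowest in the formative list, which is a description without a test. Genes of the oocyte and early embryo had no member that rose, and 9 of 16 fell (2 at least 2-fold, or 1 without the 4 arrays highest on the second component; median -0.42), led by Jam2, a junction molecule (-1.59, SE 0.24, limma adjusted p = 3.22e-05). With all 31 arrays in the fit 4 of these 16 fell. In the list of germline genes that DNA methylation silences, 5 of 19 fell and 0 rose. Without the 2 arrays of low Y-linked signal 2 fell. Without the 4 arrays highest on the second component 3 fell and 1 rose. The count of falls was 2 or 3 without any 1 of day 0 replicates 1, 4, 5, 8 and 9 or day 11 replicates 2, 3, 6 and 9, and 1 without day 11 replicate 7. Mael, a germline RNA-pathway gene, was the member that fell at least 2-fold (-1.30, SE 0.37, adjusted p = 0.00948; 0.0549 in the fit over all 31 arrays).

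Most genes of the formative epiblast, and part of the organizer genes, fell. Of 18 formative and primed epiblast genes, 11 fell (8 at least 2-fold) and 2 rose (1 at least 2-fold), with a median of -0.74. Fgf5 ranged from 10.35 to 12.41 (median 12.05) at day 0 and from 6.66 to 10.51 (median 8.20) at day 11. The groups touched, since day 11 replicate 6 (10.51) was above day 0 replicate 1, and the change was -3.54 (SE 0.41, limma adjusted p = 1.48e-06). Lefty1 and Lefty2, secreted inhibitors of Nodal and themselves induced by it, ranged at day 0 from 12.75 to 13.48 and from 11.34 to 12.94, and at day 11 from 8.06 to 10.74 and from 7.18 to 10.20. Both fell without overlap, by 3.93 and 3.64 on the log2 scale (adjusted p = 4.5e-10 and 1.54e-08). Sox3 (-1.31, adjusted p = 0.000184) and Foxd3 (-1.20, 2.18e-06), transcription factors of epiblast and its neural derivatives, fell with no overlap, while Dnmt3b, the de novo DNA methyltransferase of the epiblast, fell by 0.61 (0.000966). Lef1, a nuclear partner of beta-catenin, was the list member that rose at least 2-fold (1.51, SE 0.15, 1.8e-07).

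In the primitive streak and organizer list 8 of 19 fell (6 at least 2-fold) and 5 rose (3 at least 2-fold), with a median of -0.08. Cer1, a secreted antagonist of Nodal, BMP and Wnt, ranged from 10.85 to 12.64 (median 11.84) and then from 6.08 to 9.63 (median 7.07), and Gsc, the organizer homeobox gene, from 7.44 to 9.98 (median 9.64) and then from 4.22 to 7.09 (median 5.44). Day 11 lay below day 0 throughout for both, with changes of -4.46 (SE 0.42, limma adjusted p = 1.15e-07) and -3.87 (SE 0.37, 1.55e-07). Lhx1, a homeobox gene of the anterior streak and of the kidney, changed by -3.15 (8.43e-06) and Eomes, the T-box factor of early mesendoderm, by -1.41 (0.00299). Mixl1, of the same stage, changed by -1.39 (0.0331), a call lost without any 1 of 10 arrays (day 0 replicates 2, 3, 6, 8 or 10, or day 11 replicates 1, 3, 4, 8 or 9; adjusted p from 0.0501 to 0.069). Cdx2, which sets posterior identity and also marks trophoblast, ranged from 5.51 to 6.20 (median 5.74) and then from 7.03 to 9.70 (median 8.64), a rise of 2.81 without overlap (3.28e-07), and Aplnr, the apelin receptor of early mesoderm, rose by 2.00 (0.0047).

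Of the 46 lists, chosen with earlier results of these data known, that of visceral endoderm and yolk sac had the largest share of rising members. Of 24 measured genes, 20 rose (19 at least 2-fold), 0 fell and 4 did not pass, with a median change of 2.01, beside 17.3% of all genes that rose and a median of -0.031 for all genes. The count of rising genes was 15 without the arrays of low Y-linked signal (day 0 replicate 4 and day 11 replicate 3), and 15 without the 4 arrays highest on the second component. Afp, alpha-fetoprotein, ranged from 4.74 to 6.38 (median 5.18) at day 0 and from 7.35 to 13.67 (median 10.42) at day 11. Ttr, the thyroid hormone carrier transthyretin, ranged from 6.55 to 8.91 (median 6.78) and then from 9.26 to 13.69 (median 10.82). Every day 11 array exceeded every day 0 array in both, with changes of 5.09 (SE 0.71, limma adjusted p = 1.39e-05) and 4.11 (SE 0.51, 3.89e-06). The day 11 arrays were far apart, as the SD of Afp was 2.40 there against 0.45 at day 0.

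Apoa1, the main protein of high-density lipoprotein, ranged from 5.48 to 6.86 (median 5.84) and then from 6.96 to 12.83 (median 8.94), without overlap (3.55, SE 0.64, limma adjusted p = 0.000198). Apob, the scaffold of low-density lipoprotein, ranged from 4.38 to 8.72 (median 4.80) and then from 6.74 to 12.02 (median 9.57), a change of 4.43 (SE 0.65, 2.64e-05). The overlap in Apob came from day 0 replicate 5, the next day 0 array being 5.21. Rbp4, the retinol carrier, rose by 3.24 without overlap (9.35e-06), and Cubn, the uptake receptor cubilin, by 3.65 (SE 0.82, 0.00156). Its partner Amn (amnionless) changed by 2.02 (0.0303) and lost its call without day 0 replicate 3 or 6 or day 11 replicate 3, 4 or 8 (adjusted p from 0.0501 to 0.0612). Apoa2 (2.01, 0.0238) did not pass without the 2 arrays of low Y-linked signal (1.84, 0.0615) or without the 4 arrays highest on the second component (2.06, 0.0567). Day 0 replicate 5 stood out from the other day 0 arrays in this list, with a list mean of 7.37 against 5.95 to 6.44, Cubn at 10.63 against 4.46 to 7.28 and Amn at 10.98 against 5.90 to 7.62.

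Other endoderm genes divided. In the definitive endoderm and gut list 5 of 19 rose (3 at least 2-fold) and 6 fell (3 at least 2-fold), with a median of -0.09. Of all genes 17.3% rose and 19.7% fell. Gata4, shared by heart and extraembryonic endoderm, rose by 1.45 (SE 0.24, limma adjusted p = 8.26e-05) and Shh, the signal of gut tube and notochord, by 1.37 (0.00592). The other probe set of each did not pass (0.24, 0.0885 for Gata4 and -0.03, 0.773 for Shh). Foxa2, of endoderm and node, fell by 1.30 (0.000772) and Cxcr4, the chemokine receptor used to sort definitive endoderm, fell by 2.21 (0.000134). Sox17 ranged from 8.35 to 11.30 (median 10.84) and then from 8.61 to 11.57 (median 9.49), overlapped, and did not pass (-0.75, 0.135). It passed without day 0 replicate 1 (-0.99, 0.0228), without day 11 replicate 4 (-0.98, 0.0335) and without the 4 arrays highest on the second component (-1.01, 0.0239). Lama1, the laminin chain of Reichert's membrane, ranged from 5.43 to 10.72 (median 6.39) and then from 7.85 to 12.91 (median 9.74), a rise of 3.15 (0.00155), and Col4a1, a basement membrane collagen, rose by 1.19 (0.00989). In that list of basement membrane and adhesion genes 10 of 23 rose (2 at least 2-fold) and 2 fell (1 without the 4 arrays highest on the second component), with a median of 0.36.

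**Figure D2:**
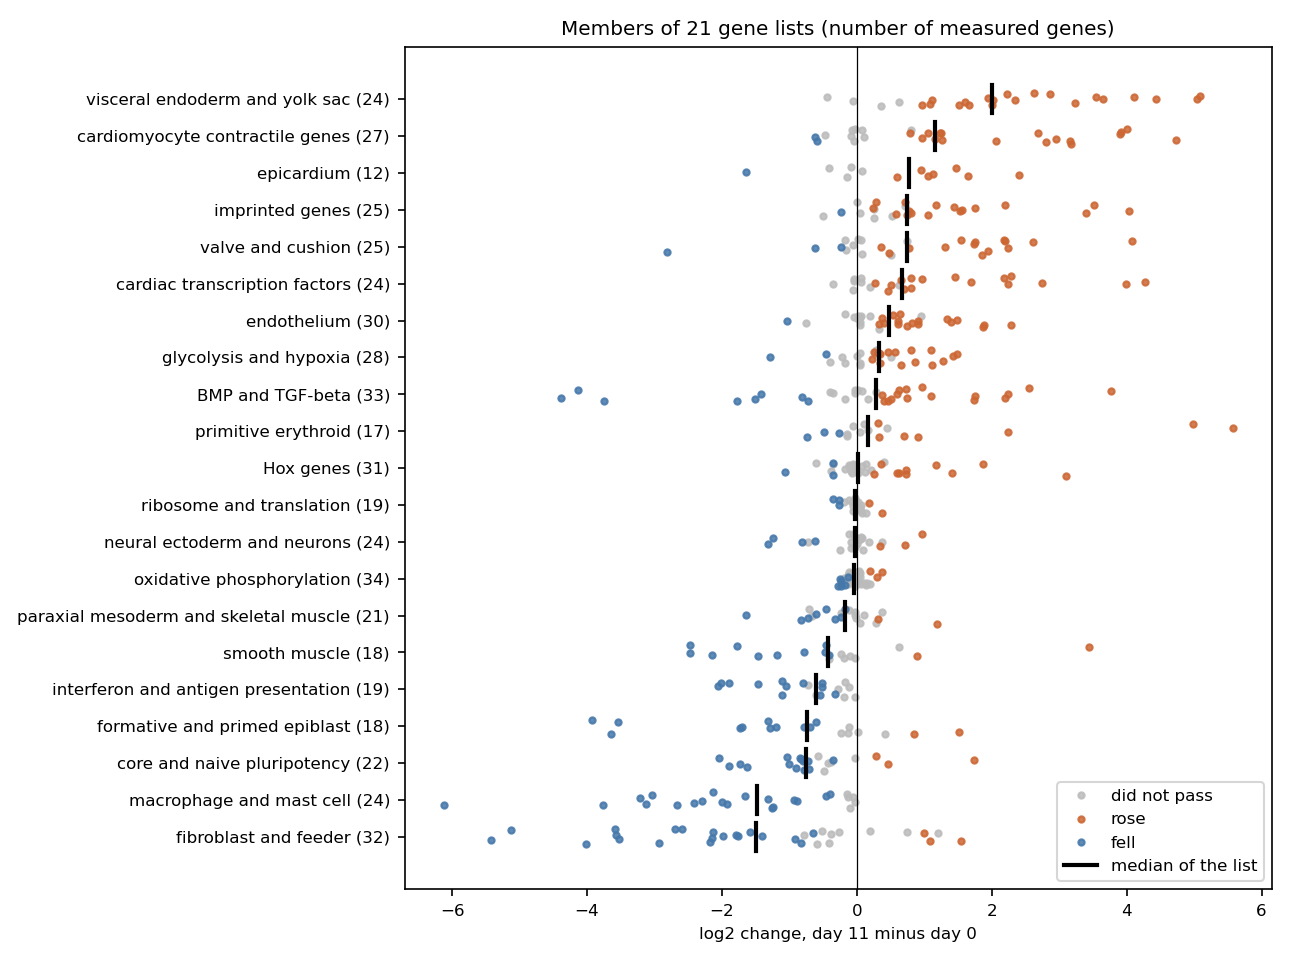
Log2 change from day 0 to day 11 (horizontal axis) for each measured member of 21 gene lists (rows, with the number of genes), coloured by whether it rose, fell or did not pass, with the list median as a bar. Visceral endoderm genes have a median of 2.01 and 0 falls, while the fibroblast list has a median of -1.49.

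Of 24 cardiac transcription factors 16 rose (8 at least 2-fold), 0 fell and 8 did not pass, with a median of 0.67. The count of falls was 1 with each gene's probe sets averaged, and 1 without day 11 replicate 2. Dropping probe sets that can match several transcripts (ending in _x_at or _s_at) also gave 1 fall. Mef2a did not pass (0.06, limma adjusted p = 0.711), but 4 of its other probe sets fell and 1 did not pass. The mean of its probe sets fell (-0.28, 0.0165). Tbx20, a T-box factor of the chamber myocardium and valves, ranged from 4.89 to 6.45 (median 5.81) at day 0 and from 8.69 to 10.53 (median 9.94) at day 11, and Hey2, a Notch-responsive repressor of the ventricle, from 4.22 to 5.01 (median 4.53) and then from 6.48 to 7.44 (median 6.61). Neither gene had an array of one day within the range of the other, and the changes were 3.99 (SE 0.27, limma adjusted p = 1e-09) and 2.18 (SE 0.14, 4.55e-10). Smaller rises were in Gata6 (0.96, 0.0047), Nkx2-5, the homeobox factor of heart muscle (0.51, 0.0154), and Hand1, of the left ventricle and extraembryonic mesoderm (0.46, 0.000273). Isl1, the factor of second heart field progenitors, changed by 0.80 (0.0294) and lost its call without day 0 replicate 1 (0.75, 0.0503) and without the 2 arrays of low Y-linked signal (0.82, 0.0525). In the fit over all 31 arrays neither Gata6 (0.076) nor Isl1 (0.219) passed. Tbx5, the factor of the first heart field and atria, ranged from 6.41 to 6.76 (median 6.49) and then from 6.19 to 7.28 (median 6.50) and did not pass (0.06, 0.705).

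RNA of sarcomere genes, which make the contractile unit of heart muscle, and of other heart muscle genes counted with them rose over most of their list. It is called the sarcomere list here. Of 27 genes, 17 rose (15 at least 2-fold), 2 fell (0 at least 2-fold) and 8 did not pass, with a median of 1.16. Tnnt2, cardiac troponin T, ranged from 4.17 to 6.30 (median 5.44) and then from 8.40 to 12.18 (median 9.82), and Ttn, the giant spring titin, from 3.59 to 4.41 (median 4.10) and then from 6.19 to 11.27 (median 7.78). Tnni1, the slow troponin I that fetal heart uses, ranged from 5.74 to 6.79 (median 6.14) and then from 9.10 to 11.59 (median 10.10). All day 11 arrays were above all day 0 arrays in the 3 genes, and the changes were 4.73 (SE 0.40, limma adjusted p = 2.58e-08), 4.00 (SE 0.47, 2.05e-06) and 3.90 (SE 0.28, 2.62e-09).

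Both cardiac myosin heavy chains were among them. Myh7, the slow chain of the fetal ventricle, ranged from 5.36 to 8.32 (median 6.21) and then from 8.79 to 12.48 (median 9.60), and Myh6, the fast chain of atria and adult mouse heart, from 5.22 to 6.84 (median 5.46) and then from 6.95 to 11.30 (median 7.85). They rose by 3.91 (SE 0.45, limma adjusted p = 1.73e-06) and 2.95 (SE 0.46, 4.86e-05), with no overlap in either. Actc1, cardiac actin, rose by 3.18 (SE 0.45, 1.9e-05) and Myl7, the atrial regulatory light chain, by 2.68 (SE 0.44, 9.17e-05), both without overlap. Myl2, the ventricular light chain, named after its values were seen, was 5.20 on day 11 replicate 1, within the day 0 range of 4.87 to 5.25, and 12.18 on replicate 7 (3.16, SE 0.66, 0.000802). Tpm1, tropomyosin, was high on both days (medians 13.07 and 13.12) and did not pass (-0.09, 0.624).

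Of 18 genes of calcium handling, ion channels and heart hormones, 4 rose (1 at least 2-fold; 2 at least 2-fold without the 4 arrays highest on the second component), 2 fell (0 at least 2-fold) and 12 did not pass, with a median of -0.02. Ryr2, the calcium release channel, ranged from 4.59 to 6.10 (median 5.26) and then from 5.40 to 8.48 (median 6.72), a rise of 1.68 (SE 0.29, limma adjusted p = 0.000157). Another probe set of Ryr2 did not pass (0, 0.989). Nppa, atrial natriuretic peptide, ranged from 3.81 to 5.04 (median 4.19) and then from 3.94 to 5.54 (median 4.26) and did not pass (0.17, 0.464). Gja1, connexin 43, stood at 12.69 to 13.33 and 12.95 to 13.50 (0.04, 0.783). The cardiomyocyte markers had 7 of 8 rising, and the mean over the 8 markers ran from 5.25 to 6.20 at day 0 and from 7.14 to 10.18 at day 11, whereas of the 4 skeletal muscle markers none rose (Myod1 changed by -0.01, adjusted p = 0.893) and their mean stayed between 4.50 and 4.82.

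The promoters of 3 sarcomere genes that rose are shown because the letters just before their starts hold boxes known from muscle genes. Each line gives the 250 bases before the annotated start, 5′ to 3′ on the gene's strand, from RefSeq on GRCm38.p6, with the searched motifs in capitals. The 5 motifs were searched on both strands and chosen with the list results known: the CArG box that serum response factor binds (given by name), the M-CAT box of TEAD factors (CATTCCA, with T also allowed as its last letter), AGATAA for GATA factors, the CCAAT box and the TATAAA box. Actc1 lies at chr2:114052876-114053125 (minus strand), Myl7 at chr11:5898783-5899032 (minus strand) and Tnnt2, at the first of its listed starts, at chr1:135836084-135836333 (plus strand).
Actc1: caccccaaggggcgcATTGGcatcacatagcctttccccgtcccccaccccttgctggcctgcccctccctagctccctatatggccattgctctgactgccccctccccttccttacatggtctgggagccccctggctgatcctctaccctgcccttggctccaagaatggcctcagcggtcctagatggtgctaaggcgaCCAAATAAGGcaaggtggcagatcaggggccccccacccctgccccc
Myl7: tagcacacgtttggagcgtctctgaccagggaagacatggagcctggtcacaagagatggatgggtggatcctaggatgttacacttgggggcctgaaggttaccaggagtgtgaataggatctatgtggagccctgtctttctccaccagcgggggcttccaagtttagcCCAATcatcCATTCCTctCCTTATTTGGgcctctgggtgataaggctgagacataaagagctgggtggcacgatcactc
Tnnt2: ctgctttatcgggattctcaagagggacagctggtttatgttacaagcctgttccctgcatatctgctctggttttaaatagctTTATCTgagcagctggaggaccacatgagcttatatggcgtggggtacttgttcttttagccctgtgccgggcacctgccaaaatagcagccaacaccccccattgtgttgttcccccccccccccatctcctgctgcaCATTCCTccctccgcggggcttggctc
The capitals nearest the start are a CArG box in Actc1, 47 to 38 bases before it. In Myl7 they are an M-CAT box and a CArG box side by side, at 70 to 64 and 61 to 52 bases, and in Tnnt2 an M-CAT box at 27 to 21 bases, with an AGATAA on the other strand at 166 to 161 bases. Among the 30 promoters listed for 22 of the 27 sarcomere genes, 6 held a CArG box (20%) and 7 an M-CAT box (23.3%), where 1.47% and 7.97% of all 32851 promoters did. An M-CAT box was also in 5 of the 27 promoters listed for visceral endoderm genes (18.5%). Of 14 promoters listed for smooth muscle genes, 1 held a CArG box (7.14%) and 2 an M-CAT box (14.3%). Of the 30 sarcomere promoters, 4 held AGATAA (13.3%) and 13 a CCAAT box (43.3%), where 9.99% and 33.8% of all promoters did. These are matches of letters, counted without a test.

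In the epicardium list 7 of 12 rose (5 at least 2-fold, and 2 once probe sets ending in _x_at or _s_at, which can match several transcripts, were dropped) and 1 fell (2 without day 0 replicate 1 or without the 4 arrays highest on the second component). Tcf21, a basic helix-loop-helix factor of epicardial fibroblast precursors, ranged from 3.50 to 3.95 (median 3.77) and then from 4.08 to 7.95 (median 6.39), and Upk3b, a surface protein of mesothelium, from 4.22 to 4.67 (median 4.31) and then from 4.98 to 7.35 (median 6.17). Both rose without overlap (2.41, SE 0.40, limma adjusted p = 8.46e-05, and 1.65, SE 0.26, 5.04e-05), and Wt1, the epicardial and renal zinc finger factor, rose by 1.13 (0.000677). Tbx18, which marks epicardium and somite boundaries, fell from a median of 7.88 to 6.36 without overlap (-1.65, 8.51e-06). Of 25 valve and cushion genes 14 rose (11 at least 2-fold) and 3 fell (1 at least 2-fold), with a median of 0.75. Msx2, a BMP-induced homeobox gene, ranged from 6.85 to 8.45 (median 8.16) and then from 9.95 to 11.21 (median 10.87), a rise of 2.61 without overlap (5.07e-09), and Postn, the matrix protein periostin, rose by 1.54 (0.00105). Fbln2, a matrix protein of cushions and of fibroblasts, fell by 2.82 (5.15e-08).

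Smooth muscle genes went the other way. Of 18 measured, 10 fell (6 at least 2-fold) and 2 rose (1 at least 2-fold), with a median of -0.43. Cnn1, calponin, ranged from 9.20 to 11.11 (median 9.89) at day 0 and from 6.42 to 8.38 (median 7.73) at day 11, and Myl9, the smooth muscle light chain, from 10.50 to 12.53 (median 11.16) and then from 6.96 to 10.02 (median 9.06). Each fell by 2.47 on the log2 scale without overlap (limma adjusted p = 1.83e-06 and 1.46e-05). Tagln, transgelin, fell by 1.19 (0.000196), while Acta2, smooth muscle actin, overlapped between the days (medians 13.30 and 13.35) and did not pass (-0.23, 0.445). Rgs5, a regulator of G-protein signals found in pericytes, ranged from 5.60 to 7.92 (median 7.36) and then from 9.78 to 11.53 (median 10.50), a rise of 3.44 without overlap (1.37e-08). Fibroblasts also express several smooth muscle genes, and the fibroblast list moved in the same direction, as given next; the part of feeder cells in these falls was not tested.

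Connective tissue genes of the feeder type had, beside the macrophage list, the lowest median of the 46 lists. Of 32 fibroblast and feeder genes 20 fell (17 at least 2-fold), 3 rose (all 3 at least 2-fold) and 9 did not pass, with a median of -1.49. With each gene's probe sets averaged, 1 gene of the list rose at least 2-fold. S100a4 ranged from 12.48 to 13.65 (median 13.11) and then from 6.38 to 9.38 (median 7.68), and Thy1, a surface protein of fibroblasts, from 9.23 to 10.83 (median 10.04) and then from 5.57 to 7.40 (median 6.53). No array of day 11 reached the day 0 range, and they fell by 5.43 and 3.59 on the log2 scale (limma adjusted p = 4.3e-11 and 3.9e-10). The array means of the list ran from 9.89 to 11.36 at day 0 and from 8.45 to 9.79 at day 11. Grem1, a BMP antagonist secreted by fibroblasts, fell by 4.39 (8.99e-10), Col1a2 by 1.79 (1.14e-05) and Vim, vimentin, by 0.83 (4.92e-05).

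Not all stromal genes shared this fall. Pdgfra, the receptor of early mesenchyme, rose by 1.08 (SE 0.25, limma adjusted p = 0.00197), and Postn by 1.54. Col1a1 changed by 1.00 (0.0373), and its call was lost without day 0 replicate 1, 4, 5, 7, 8 or 9 or day 11 replicate 5, 7, 8 or 9 (adjusted p from 0.054 to 0.074). Its other probe set did not pass (-0.21, limma adjusted p = 0.636), nor did the mean of its probe sets (0.4, 0.372), so its direction is not settled. Without day 11 replicate 1 alone, or without the 4 arrays highest on the second component, 5 genes of the list rose. Col3a1 (0.19, 0.743), Lum, lumican (1.21, 0.115), and Dcn, decorin (-0.78, 0.145), did not pass. Lum passed without day 11 replicate 1 (1.55, 0.0313) and without the 4 arrays highest on the second component (2.03, 0.00938), and so did Dcn, in the other direction (-1.02, 0.0417, and -1.12, 0.0447). Lum was 6.72 to 8.78 on day 11 replicates 1, 2, 3 and 6 and 10.42 to 11.44 on the others, against 7.01 to 9.93 at day 0. The 8 fibroblast markers had 3 rising and 2 falling, with array means of 9.40 to 10.80 at day 0 and 9.25 to 11.07 at day 11.

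Macrophage genes and interferon genes were lower at day 11. In the macrophage and mast cell list 19 of 24 fell (15 at least 2-fold) and 0 rose, with a median of -1.48. Lyz2 ranged from 11.55 to 13.84 (median 12.49) at day 0 and from 5.68 to 7.68 (median 6.44) at day 11, and C1qa, a chain of the complement component C1q, from 6.98 to 10.23 (median 8.30) and then from 4.49 to 5.36 (median 4.82). Both separated the days, at -6.12 (SE 0.31, limma adjusted p = 2.27e-11) and -3.77 (SE 0.34, 5.93e-08). Adgre1, a surface receptor of mature macrophages, fell by 2.13 (0.000118) and Ptprc, the pan-leukocyte antigen CD45, by 2.66 (8.92e-06). Csf1r, the macrophage growth factor receptor, fell by 1.31 (0.0101) but did not pass without the 4 arrays highest on the second component (-1.15, 0.0516). The list mean at day 0 was highest on replicates 4 (8.57), 9 (8.32), 7 (8.22) and 1 (8.04) and 6.75 to 7.40 on the other 6. All 6 macrophage markers fell, with array means of 7.61 to 10.36 and then 5.63 to 6.81. Which cells carried these genes at day 0 was not tested, and the labels name fibroblasts alone as support cells.

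In the interferon and antigen presentation list 12 of 19 fell (7 at least 2-fold) and 0 rose, with a median of -0.61. Psmb8, a subunit of the immunoproteasome, ranged from 9.46 to 10.49 (median 10.03) and then from 6.84 to 9.13 (median 8.05), and H2-D1, a class I histocompatibility antigen, from 10.76 to 12.47 (median 11.91) and then from 9.29 to 11.16 (median 9.67). Psmb8 fell by 2.06 without overlap (limma adjusted p = 5.15e-07) and H2-D1 by 2.01 (2.36e-06), the latter with day 11 replicate 4 (11.16) inside the day 0 range. Class I genes are near-identical copies, so probes of H2-D1 may also take up RNA of its relatives, and 3 of its 8 other probe sets did not pass. Ifitm2 did not pass (-0.12, 0.422). Feeder and macrophage genes fell in the same arrays, and their part in these falls was not tested.

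Most vessel genes and the embryonic globins rose, and day 11 replicates 1 and 3 had the lowest means of both lists. In the endothelium list 17 of 30 rose (6 at least 2-fold) and 1 fell (at least 2-fold), with a median of 0.47. Kdr, the VEGF receptor of the earliest endothelial and blood precursors, ranged from 6.72 to 7.31 (median 6.85) and then from 7.54 to 9.86 (median 9.00), and Tek, the angiopoietin receptor Tie2, from 5.20 to 6.68 (median 5.89) and then from 7.31 to 8.71 (median 8.30). Both rose without overlap, by 1.87 (SE 0.26, limma adjusted p = 1.21e-05) and 2.28 (SE 0.20, 4.82e-08). Cdh5, the endothelial cadherin, rose by 1.49 (0.000142) and Pecam1, its partner at junctions, by 0.64 (0.00415). Another probe set of Cdh5 did not pass (-0.07, 0.506). Flt1, the decoy VEGF receptor, fell by 1.03 (0.000538). The list mean at day 11 was 6.24 and 6.42 on replicates 1 and 3, near the day 0 range of 6.13 to 6.38, and 6.60 to 7.20 on the others. Without the 4 arrays highest on the second component, 10 genes of the list rose at least 2-fold and 2 fell.

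Among red cell genes the embryonic globins stood apart from the rest. Hbb-bh1, the beta-like globin of the first yolk-sac red cells, ranged from 4.56 to 5.21 (median 4.82) and then from 5.73 to 12 (median 10.74). Hbb-y ranged from 3.08 to 6.08 (median 3.37) and then from 5.57 to 11.62 (median 10.89), and Hba-x, the embryonic alpha-like globin, from 5.72 to 5.98 (median 5.86) and then from 5.79 to 9.61 (median 8.42). Day 11 replicates 1 and 3 were the lowest of their group in all 3 globins, and the other 7 arrays lay above every day 0 array. The changes were 4.99 (SE 0.59, limma adjusted p = 1.99e-06), 5.57 (SE 0.77, 1.3e-05) and 2.24 (SE 0.38, 0.000113). Globin genes are close copies, so their probe sets may not separate them. Of the 17 genes of the list 7 rose (3 at least 2-fold) and 3 fell (0 at least 2-fold), and the 3 globins were the ones that rose at least 2-fold. The median was 0.16. Lmo2, a cofactor of blood and vessel precursors, did not pass (0.45, 0.115), and passed without the 2 arrays of low Y-linked signal (0.58, 0.0458).

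The promoters of the alpha-fetoprotein and embryonic alpha-like globin genes are shown for comparison with those of muscle, printed in the same way, Afp at chr5:90490464-90490713 (plus strand) and Hba-x at chr11:32276350-32276599 (plus strand).
Afp: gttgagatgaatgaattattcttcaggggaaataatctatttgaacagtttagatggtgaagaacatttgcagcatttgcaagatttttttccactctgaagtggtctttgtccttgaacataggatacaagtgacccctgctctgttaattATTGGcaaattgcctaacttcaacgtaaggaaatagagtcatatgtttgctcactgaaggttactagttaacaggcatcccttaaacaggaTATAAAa
Hba-x: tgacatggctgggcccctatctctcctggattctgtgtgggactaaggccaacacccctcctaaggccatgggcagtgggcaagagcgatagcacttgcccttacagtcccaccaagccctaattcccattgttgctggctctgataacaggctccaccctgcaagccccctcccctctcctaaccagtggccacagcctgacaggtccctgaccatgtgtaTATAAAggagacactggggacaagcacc
Afp holds TATAAA in the last bases before the annotated start (7 to 2) and a CCAAT on the other strand at 98 to 94 bases, and Hba-x holds TATAAA at 28 to 23 bases. Of 27 promoters listed for 21 of the 24 visceral endoderm genes, 6 held TATAAA (22.2%) and 0 a CArG box, where 12.4% of all promoters held TATAAA. Of 16 promoters for 13 of the 17 red cell genes, 4 held AGATAA (25%), against 9.99% of all. TATAAA was in 1 of the 30 sarcomere promoters and in 8 of the 22 promoters listed for fibroblast and feeder genes (36.4%). A CCAAT box was in 8 of the 27 visceral endoderm promoters (29.6%), against 33.8% of all.

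In the neural list 3 of 24 rose (0 at least 2-fold), 4 fell (2 at least 2-fold) and 17 did not pass, with a median of -0.02, where 37% of all genes passed. Without the 4 arrays highest on the second component 1 rose at least 2-fold. Tubb3, the neuronal tubulin, ranged from 7.12 to 8.09 (median 7.71) and then from 6.63 to 8.54 (median 8.05) and did not pass (0.18, limma adjusted p = 0.558). Sox1 and Pax6, the earliest neural plate factors, did not pass on the probe set used (-0.06, 0.515, and -0.03, 0.729), but 1 other probe set of each rose. Map2, a neuronal microtubule protein, fell by 1.24 (0.000339). None of the 6 neural markers rose, and their array means were 7.20 to 7.53 and then 6.97 to 7.34. In the surface ectoderm and epithelium list 5 of 18 fell (2 at least 2-fold) and 4 rose, a count that was 2 without day 11 replicate 8 or 9. Of all genes 19.7% fell and 17.3% rose. In this list Krt17, a stress keratin, had the largest fall (-2.80, 4.48e-06). Cdh1, the epithelial cadherin, fell by 0.63 (1.47e-06) and Epcam by 0.53 (5.22e-05), both staying above 11 on every array, while Krt8 did not pass (-0.09, 0.729) except without the 4 arrays highest on the second component (-0.29, 0.0142).

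Neural crest genes divided. In that list 6 of 13 rose (3 at least 2-fold) and 5 fell (1 at least 2-fold), with a median of 0.66, and the falling genes were 3 without day 11 replicate 5 or 8. Msx1, a homeobox gene of crest, limb and cushions, ranged from 6.36 to 7.57 (median 6.68) and then from 8.04 to 9.46 (median 8.55), without overlap (1.95, SE 0.21, limma adjusted p = 6.17e-07). In the paraxial mesoderm and skeletal muscle list 2 of 21 rose (1 at least 2-fold) and 8 fell (1 at least 2-fold), and 5 fell without the 2 arrays of low Y-linked signal. Without the 4 arrays highest on the second component 2 of its genes fell at least 2-fold. The trophoblast list had 8 of 15 rising (5 in the fit over all 31 arrays), 5 of them at least 2-fold (3 without the 4 arrays highest on the second component), and 2 falling (both at least 2-fold). Plac1, a placental membrane gene, ranged from 4.98 to 6.13 (median 5.44) and then from 8.09 to 9.99 (median 9.06), a rise of 3.55 without overlap (2.17e-10). Elf5, the trophoblast stem cell factor, fell by 1.35 (0.00467) and Tpbpa, of spongiotrophoblast, did not pass (0.19, 0.148; 0.29, 0.0193 without the 4 arrays highest on the second component), while Cdx2, which the list shares with the streak list, rose by 2.81. In the kidney list 3 of 14 rose (2 at least 2-fold) and 6 fell (3 at least 2-fold), where 17.3% of all genes rose and 19.7% fell. Osr1, of intermediate mesoderm, fell by 1.54 (0.000204).

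Hox genes set position along the body axis. Of 31 Hox genes 10 rose (4 at least 2-fold), 3 fell (1 at least 2-fold; 1 fell without the 4 arrays highest on the second component) and 18 did not pass, with a median of 0.01, where 37% of all genes passed. Hoxd1 ranged from 3.24 to 3.81 (median 3.68) and then from 5.97 to 7.81 (median 6.56), and Hoxb1, which patterns the hindbrain and second heart field, from 3.51 to 3.89 (median 3.71) and then from 4.49 to 7.30 (median 5.46). Both rose without overlap (3.10, SE 0.19, limma adjusted p = 2.07e-10, and 1.87, SE 0.28, 3.1e-05). At the other end of a cluster, Hoxd13 fell by 1.06 (0.000845), but its other probe set did not pass (-0.12, 0.363). The count of Hox genes falling at least 2-fold was 0 without any 1 of day 0 replicates 2, 3 and 6 or day 11 replicate 6. Hoxc8, from the middle of its cluster, did not pass (-0.61, 0.178). In the retinoic acid list 5 of 18 rose (5 at least 2-fold) and 5 fell (1 at least 2-fold). Meis2, a Hox cofactor that retinoic acid induces, ranged from 5.58 to 7.19 (median 6.88) and then from 8.66 to 10.53 (median 9.91), and Meis1 from 5.98 to 6.89 (median 6.52) and then from 8.07 to 9.26 (median 8.79). They rose by 3.03 and 2.19 without overlap (5.52e-09 and 1.78e-09), whereas Cyp26a1, the enzyme that breaks retinoic acid down, fell by 1.56 (0.00144).

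Among the signalling lists, that of BMP and TGF-beta had the largest share of members that passed, as 16 of 33 rose (7 at least 2-fold) and 8 fell (6 at least 2-fold). Among ligands Bmp5 ranged from 4.92 to 5.93 (median 5.77) and then from 8.58 to 9.73 (median 9.56), a rise of 3.77 (SE 0.15, limma adjusted p = 6.91e-13) without overlap. Inhbb, a subunit of activin, ranged from 8.94 to 11.03 (median 9.96) and then from 4.97 to 7.07 (median 5.88), and fell by 4.13 without overlap (2.31e-09). Of the feedback proteins, Smad6, an inhibitory Smad that BMP induces, ranged from 6.73 to 7.51 (median 7.38) and then from 9.18 to 10.32 (median 9.86), and rose by 2.55 without overlap (4.83e-11). Id3, another BMP target, did not pass (0.29, 0.119) but did without the 4 arrays highest on the second component (0.39, 0.0155).

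In the Wnt list 10 of 30 rose (3 at least 2-fold) and 7 fell (5 at least 2-fold), where 17.3% of all genes rose and 19.7% fell. Wnt2, a ligand of heart and lung mesoderm, rose by 1.85 (SE 0.28, limma adjusted p = 2.95e-05). The receptors Fzd5 and Fzd8 ranged from 10.35 to 12.29 and from 7.83 to 9.85 at day 0, and from 8.23 to 9.72 and from 6.33 to 7.80 at day 11, with changes of -2.62 and -2.25 and no overlap (4.9e-08 and 7.72e-07). Fzd7 did not pass (0.11, 0.394). Of the FGF, EGF and IGF list 13 of 34 fell (7 at least 2-fold) and 7 rose (5 at least 2-fold). Fgf4, Fgf5 and the EGF-family ligand Ereg, given above, were among the falls, and Igf2, given below, among the rises. Igfbp5 rose by 2.77 (0.000527) on a probe set that may also take up other RNAs, and its other probe set did not pass (-0.11, 0.184), so its direction is not settled. In the Notch and ephrin list 9 of 23 rose (2 at least 2-fold) and 6 fell (0 at least 2-fold), and without the 2 arrays of low Y-linked signal 3 fell. Efna1, a membrane-bound ephrin ligand, rose from a median of 6.88 to 8.91 without overlap (1.99, 1.69e-08).

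Imprinted genes, which are expressed from one parental copy and control fetal growth, rose over most of their list. Of 25 measured, 17 rose (10 at least 2-fold), 1 fell and 7 did not pass, with a median of 0.75. Without the 4 arrays highest on the second component, or after quantile normalization, 0 fell. Igf2, the fetal growth factor, ranged from 9.77 to 11.50 (median 10.45) and then from 13.33 to 14.43 (median 14.17), and Dlk1, a Notch-like membrane protein of fetal tissues, from 5.91 to 6.98 (median 6.28) and then from 8.22 to 11.73 (median 10.30). Both rose without overlap, by 3.52 (SE 0.21, limma adjusted p = 1.82e-10) and 4.04 (SE 0.31, 8.99e-09). The other probe set of each rose less, by 1.88 for Igf2 and 0.54 for Dlk1. Cdkn1c, the growth-restraining cell cycle inhibitor p57, rose by 2.19 (2.15e-06). The non-coding RNAs of the Dlk1 locus did not follow Dlk1. Meg3 and Rian did not pass (0.04, 0.975, and -0.50, 0.66), and Rian was 13.00 to 13.19 on day 11 replicates 3, 4, 5, 6 and 8 but 6.21 to 9.73 on replicates 1, 2, 7 and 9, against 10.16 to 12.58 at day 0. Mirg split the same arrays (10.18 to 10.64 against 5.23 to 7.13), while Dlk1 itself did not.

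Chromatin and RNA-binding genes changed mostly by less than 2-fold. Of all genes 17.3% rose, 19.7% fell and 5.69% passed at least 2-fold. Of 24 DNA methylation and Polycomb genes 6 rose (0 at least 2-fold) and 5 fell (1 at least 2-fold), 2 falling in the fit over all 31 arrays and 3 falling without day 11 replicate 3 or 8. Without the 4 arrays highest on the second component 0 fell at least 2-fold. Dnmt3l, the cofactor of de novo methylation, fell by 1.21 (limma adjusted p = 0.00943) but did not pass in the fit over all 31 arrays (0.0891) or without the 4 arrays highest on the second component (-0.97, 0.0568). Jarid2, a Polycomb cofactor, did not pass (0.19, 0.377). In the list of RNA-binding proteins and the let-7 axis 10 of 16 rose (0 at least 2-fold) and 2 fell (1 at least 2-fold), 6 rising in the fit over all 31 arrays. Mbnl1, a splicing regulator of differentiated tissues, ranged from 8.88 to 10.78 (median 10.12) and then from 7.85 to 9.48 (median 8.90), a fall of 1.21 (0.000299). Neither of its other probe sets passed (0.11, 0.499, and -0.18, 0.0656).

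Genes of translation, respiration and the cell cycle were also counted, where 37% of all genes passed. Eef1a1, a translation elongation factor, ranged from 14.68 to 14.75 and then from 14.66 to 14.76 (0.00, limma adjusted p = 0.95). Of 19 ribosome and translation genes 2 rose and 3 fell (1 without the 4 arrays highest on the second component, 5 without day 11 replicate 2), none 2-fold. Of 34 oxidative phosphorylation genes 3 rose and 6 fell, none 2-fold. Without any 1 of day 0 replicates 2 and 3 and day 11 replicates 8 and 9, 1 of these rose, and 3 fell without the 4 arrays highest on the second component or with each array centred on its median. Uqcrb, of respiratory complex III, did not pass (0.05, 0.489). In the cell cycle lists 5 of 27 genes of G1/S and replication rose and 7 fell (1 at least 2-fold; 4 fell without the 2 arrays of low Y-linked signal and 2 without the 4 arrays highest on the second component), and 5 of 22 genes of G2/M rose and 0 fell. Without the 2 arrays of low Y-linked signal 3 of those 22 rose, without the 4 arrays highest on the second component 2 fell, and 3 fell without day 11 replicate 1, the array with the highest G2/M mean (11.72 against 10.99 to 11.29). Ccnd1, cyclin D1, ranged from 10.95 to 12.24 (median 11.98) and then from 9.72 to 10.77 (median 10.47), and fell by 1.38 without overlap (3.67e-06), while Pcna did not pass (-0.08, 0.267). In the list of cell cycle inhibitors and p53 targets 4 of 21 rose (1 at least 2-fold), 4 fell (2 at least 2-fold) and 13 did not pass. Its median was -0.15, and 7 of its genes fell without the 4 arrays highest on the second component. Cdkn2b, the inhibitor p15, fell by 1.85 without overlap (1.48e-07) and Cdkn2a by 1.40 (2.1e-05), while Cdkn1c of the same list rose, as given above. Cdkn1a, the p53 target p21, did not pass (-0.37, 0.0902) but did without the 2 arrays of low Y-linked signal (-0.49, 0.0249).

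Of 28 glycolysis and hypoxia genes measured, 16 rose (5 at least 2-fold) and 2 fell (1 at least 2-fold), with a median of 0.33. Eno2, an enolase of neurons and of hypoxic cells, ranged from 6.54 to 8.25 (median 7.64) and then from 7.97 to 10.03 (median 9.00), and Aldoc, aldolase C, from 7.27 to 9.76 (median 8.91) and then from 9.62 to 11.27 (median 10.04). They rose by 1.48 (SE 0.24, limma adjusted p = 8.11e-05) and 1.43 (SE 0.28, 0.000496), with the days touching in both. Pdk4, the kinase that turns glucose oxidation off, fell by 1.28 (0.000181), and Gapdh did not pass (0.05, 0.475). In the antioxidant and stress list 13 of 30 fell (3 at least 2-fold) and 4 rose (1 at least 2-fold), and 2 rose without the 2 arrays of low Y-linked signal or in the fit over all 31 arrays. Nqo1, a quinone reductase under the factor Nrf2, fell from a median of 8.59 to 6.45 without overlap (-1.97, 3.21e-07), and Gpx3, the secreted glutathione peroxidase, rose by 1.62 (0.00384). Fabp4, the fatty acid carrier of fat cells and macrophages, fell by 2.52 without overlap (5.67e-05), and Lpl, lipoprotein lipase, rose by 1.34 (0.00066). The nitric oxide list had 5 of 22 rising (1 at least 2-fold) and 7 falling (3 at least 2-fold), where 17.3% of all genes rose and 19.7% fell. Nos3, the endothelial synthase, ranged from 6.36 to 7.05 and then from 6.76 to 7.43 (0.40, SE 0.10, 0.00405), Gucy1b1, a subunit of the nitric oxide receptor, rose by 1.68 (0.00212), and Cav1, caveolin 1, fell by 4.05 without overlap (2.11e-11).

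**Figure D3:**
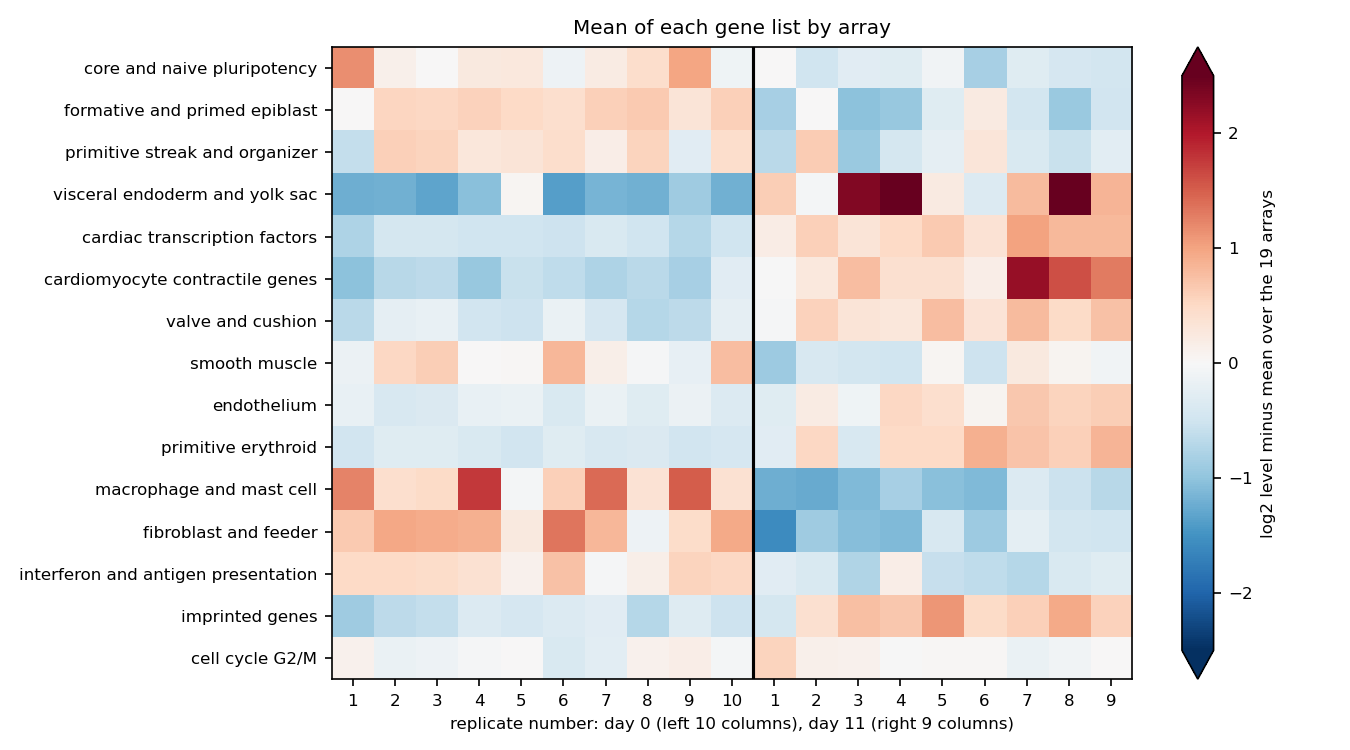
Mean log2 level of 15 gene lists (rows) on each of the 19 arrays (columns, by day and replicate number), shown as the difference from the list's mean over the 19 arrays. The sarcomere list is highest on day 11 replicates 7, 8 and 9 and the visceral endoderm list on replicates 4, 8 and 3, while the macrophage list is highest on day 0 replicate 4.

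Over all genes, 219 had an SD over 1 at day 11 and 97 at day 0, while the median SD was 0.186 and 0.174, and these spreads were not tested. Not every list varied more at day 11, since the array means of the macrophage list ran from 6.75 to 8.57 at day 0 and from 5.53 to 6.45 at day 11, and those of the naive pluripotency list from 9.28 to 10.57 and then from 8.58 to 9.42. The visceral endoderm list had means of 10.84, 9.98 and 9.65 on day 11 replicates 4, 8 and 3 and of 6.99 to 8.17 on the other 6. Igfbp1, a liver and yolk-sac binding protein, was 10.31, 9.89 and 8.71 on those 3 arrays and 4.35 to 7.21 on the other 6. The sarcomere list was highest on replicates 7 (9.55), 8 (8.98) and 9 (8.67) and lay between 7.36 and 8.14 on the other 6. The red cell list was lowest on replicates 3 (5.94) and 1 (6.06), near the day 0 range of 5.86 to 6.04, and 6.84 to 7.23 on the rest.

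Replicate 8 was thus high in endoderm and heart genes, replicate 3 high in endoderm and low in globins, and replicate 6 low in endoderm with the highest red cell mean (7.23). Replicate 6 also kept the highest formative mean of day 11 (10.05), with Fgf5 at 10.51. Replicate 1 kept the highest naive mean (9.42), with Nanog at 11.76 and Esrrb at 9.21, and had the lowest means of the cardiac factor (7.69), endothelium (6.24) and fibroblast (8.45) lists. Bmp5 (8.58) and Acta2 (12.01) were also lowest on replicate 1. These are single arrays, and no test was made among them.

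**Figure D4:**
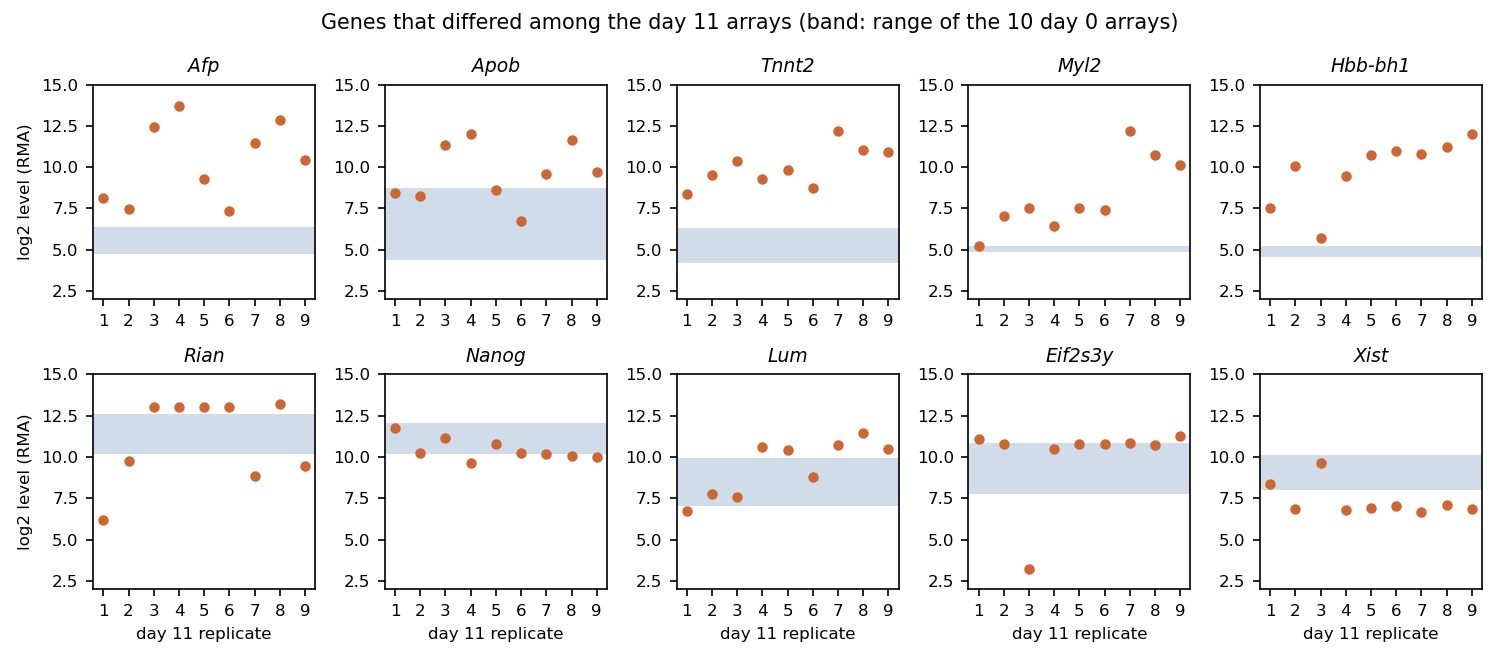
Log2 RMA levels of 10 genes (vertical axis) on each of the 9 day 11 arrays (horizontal axis, replicate number), with the range of the 10 day 0 arrays as a band. Afp runs from 7.35 to 13.67, Myl2 from 5.20 to 12.18 and Rian from 6.21 to 13.19, and Eif2s3y is at 3.21 on replicate 3.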

How the data were processed

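RNA of control iPSCs at day 0 (10 arrays) and control embryoid bodies at day 11 (9 arrays) was hybridised to expression arrays. The authors deposited log2 values made by RMA, per the submitters' processing notes, with no version named there. The array medians were 6.14 to 6.23, no value was missing and no arrays were identical. Of 45101 probe sets, 34958 had 1 gene symbol, 932 several and 9211 none in the platform annotation, and 34754 symbols matched RefSeq on GRCm38.p6. Probe sets with 1 symbol were kept.

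Day 11 was compared with day 0 in limma 3.58.1 (R 4.3.3) with a mean per group and Benjamini-Hochberg adjustment over these probe sets. For each of 18194 genes the probe set of greatest mean level was used. On simulated data with 200 changed probe sets of 34958, 84% of 1.5-fold and 97% of 2-fold changes were recovered and 5.2% of calls were false. The simulated noise was independent between probe sets and had the same SD on both days. In the real data 36% of probe sets passed, so these rates check the code and do not carry over to the real arrays. The 46 gene lists and 12 marker lists (1027 of 1098 list entries measured) are described by counts and medians without a set test. Members and lists were chosen with earlier results of these data known. Genes named are the 12 highest and 12 lowest changes without overlap (predicted genes left out), the 2 highest and 2 lowest 2-fold changes of each list with its most abundant gene that did not pass, landmark genes, the 8 most variable genes of each day and the marker genes. Xist, Uty, Kdm5d, Tdgf1 and Myl2 were added after their values were seen. Alternatives changed the scaling, the filter on low levels, the probe set rule, the variance model, the arrays in the fit and the replicate block, and left out each array in turn. Promoters were 250 bases before RefSeq starts.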

Additional observations from a re-analysis of the deposited data

Results flagged for a closer look

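Among 474 groups of values (179 genes and 58 lists, on each day), 40 had 1 array far from the rest. The rule flags about 1 in 20 independent groups picked without regard to their values. Here some genes were named for their large spread or after their values were seen, and the lists share genes with them. The count of 40 can therefore not be set against that rate. The array of day 0 replicate 5 was high in endoderm genes. Its Afp was 6.38 where the next array had 5.42, its Amn 10.98 against 7.62, its Apoa1 6.86 against 6.17, its Apob 8.72 against 5.21, its Cubn 10.63 against 7.28 and its Ttr 8.91 against 7.08. Its visceral endoderm list mean was 7.37 against 6.44 and the mean of the visceral endoderm markers 8.56 against 6.46, and its Gapdh was the lowest of the day, 13.85 against 14.04.

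Day 0 replicate 1 was lowest in Cdh1 (12.15, next 12.41), Gja1 (12.69, next 13.01), Lefty1 (12.75, next 13.22), Msx2 (6.85, next 7.71), the formative list mean (9.84, next 10.16) and the epithelium marker mean (12.20, next 12.77). Day 11 replicate 1 was lowest in Acta2 (12.01, next 13.05), Bmp5 (8.58, next 9.24), Igfbp5 (8.44, next 10.21), the BMP and TGF-beta list mean (8.77, next 8.99) and the imprinted list mean (9.11, next 9.96). It was highest in Aldoc (11.27, next 10.27) and the G2/M list mean (11.72, next 11.29).

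The Y-linked genes set day 11 replicate 3 apart, with Eif2s3y at 3.21 (next 10.46), Kdm5d at 2.79 (next 6.26) and Uty at 2.95 (next 7.17), and day 0 replicate 4, with Eif2s3y at 7.75 (next 10.19). Day 0 replicate 10 had the highest Cdkn1c (10.67, next 9.56), Myh7 (8.32, next 6.67) and Nppa (5.04, next 4.37) and the lowest Xist (7.99, next 9.10). Day 0 replicate 9 had the highest Myh6 (6.84, next 5.79) and ribosome list mean (13.07, next 12.98), and day 0 replicate 6 the lowest Isl1 (6.73, next 8.16). Among the day 11 arrays, replicate 4 had Gata4 at 9.22 (next 7.96), H2-D1 at 11.16 (next 10.09) and the lowest Tdgf1, 9.87 (next 10.90). Replicate 6 had Ereg at 5.40 (next 4.32), replicate 7 Nkx2-5 at 7.95 (next 6.90) and Nppa at 5.54 (next 4.75), and replicate 8 Wt1 at 7.92 (next 6.68).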

How the results depend on the processing

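Of 18194 genes, 6723 passed as reported, and between 6218 (without day 11 replicate 3) and 6831 (without day 11 replicate 6) passed when 1 array was left out. The count was 5842 without the arrays of low Y-linked signal and 6147 without the 4 arrays highest on the second component, both chosen after seeing the data. Without probe sets below the median level 10589 genes were tested, and 2378 genes fell and 8236 probe sets passed. With 1 probe set per gene in the fit 6794 probe sets passed, and with each gene's probe sets averaged 6831, because fewer features were tested. The replicate numbers 1 to 9 are shared by the days, but same-numbered arrays correlated from -0.21 to 0.25 in their deviations, with 3 of 9 pairs over 0.1, so they were not treated as pairs. With the replicate block 6319 genes passed, 389 rising and 625 falling at least 2-fold.

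The sign changed in 6 gene results. With the mean of the probe sets of a gene these were Pax6 (0.23), Mef2a (-0.28), Lin28a (-0.06) and Sox1 (0.55). Without probe sets suffixed _x_at or _s_at it was Igfbp5 (-0.11), and without the arrays of low Y-linked signal Eif2s3y (0.30, limma adjusted p = 0.0444). The probe sets of these genes differ, as given for Pax6, Sox1, Mef2a and Igfbp5. Of the 166 named genes that passed, 12 lost the call in at least 1 omission of a single array (7.2%) and 22 under another alternative.

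The deposited values carry no detection calls, so low levels are not bounded by background. The number of arrays limits the precision.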
